A study of Mus musculus with 32 samples.

Results

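The 7 interferon regulatory factor (IRF) genes described here are Irf1, Irf2, Irf3, Irf4, Irf5, Irf7 and Irf9, taken by symbol from a table of 33924 genes. The table also holds 2 other genes of the family, which were not described here. IRFs are transcription factors with a shared DNA-binding domain that recognises interferon-stimulated response elements (ISRE) in the control regions of antiviral genes. IRF3, IRF5 and IRF7 are switched on by kinases downstream of nucleic acid sensors and turn on interferon genes. IRF9 has another role, since it joins STAT2 in ISGF3, the complex that carries the signal from the type I interferon receptor and its Janus kinases to the nucleus. IRF1 drives antigen presentation genes, IRF2 competes with it for the same sites, and IRF4 works mainly in lymphocytes and dendritic cells.

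The libraries come from mice carrying Jak2v617f, the mutant Janus kinase allele of myeloproliferative neoplasms. Dre mRNA switched the allele on outside the body, and the cells were then grafted into recipients that had been lethally irradiated. All 10 groups share that history. The sorted cell types were LSK cells (lineage negative, Sca1+, Kit+), which hold stem and multipotent progenitor cells, and MEPs, the progenitors of megakaryocytes and red cells. In the group called TAM, tamoxifen activated Cre, which deletes the mutant allele, and cells were taken at day 3 or day 7. Other mice had 7 days of ruxolitinib, a drug that blocks the kinases JAK1 and JAK2. Vehicle mice are labelled day 0, so that treatment and elapsed time cannot be told apart, and no group received tamoxifen without the Cre target. The sources used here give no Cre driver, strain or age of the mice.

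Batch A held 4 vehicle, 3 TAM day 3 and 4 TAM day 7 libraries of LSK cells, and 3, 4 and 3 of MEPs. Batch C held 2 vehicle and 3 ruxolitinib libraries of LSK cells, and 3 and 3 of MEPs. The sample titles carry a batch letter, a or c, for vehicle libraries only. Count columns of TAM libraries are named in the form of vehicle A, and those of ruxolitinib in the form of vehicle C. No title states the batch of a treated library, so that their placing is an inference. Each of the 5 vehicle libraries of batch C has an animal number that also occurs in vehicle A: animals 12 and 18 for LSK cells, animals 12, 32 and 33 for MEPs. LSK and MEP libraries of a group share some animal numbers, 1 in each vehicle group (animal 12), 2 at TAM day 3, 3 at TAM day 7 and 3 under ruxolitinib. Total counts ran from 11.2 to 28.8 M in batch A and from 26.5 to 55.5 M in batch C. The markers of each sort were present: summed over 10 erythroid and megakaryocyte progenitor markers, vehicle A MEP libraries held 7655 to 11910 CPM (counts per M counts of the library) and vehicle A LSK libraries 553 to 1713. Summed over 10 LSK markers, vehicle A LSK libraries held 1341 to 4338 CPM and vehicle A MEP libraries 283 to 588. Jak2 itself was not called in any treatment comparison (log2 changes from -0.51 ± 0.23 to 0.24 ± 0.30), but counts per gene do not separate the mutant from the normal allele. Cish, a feedback target of STAT5, checked the treatments: in MEPs its log2 change was -5.23 ± 0.45 at TAM day 3, -3.85 ± 0.47 at day 7 and -3.22 ± 0.45 under ruxolitinib, with edgeR adjusted p of 9.32e-08, 2.02e-06 and 7.28e-05. In LSK cells the change of Cish was -2.01 ± 0.43, -1.61 ± 0.38 and -1.32 ± 0.47, and it was not called. In bulk RNA of sorted cells, fewer cells of a kind and less RNA per cell cannot be told apart.

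All members are protein-coding genes. On mm10 (GENCODE M21), Irf7 lies at chr7:141262706-141266481 on the minus strand and Irf3 at chr7:44997648-45002848 on the plus strand. Irf9 (chr14:55603571-55610030), Irf1 (chr11:53770014-53778374), Irf2 (chr8:46739732-46847458), Irf4 (chr13:30749226-30766976) and Irf5 (chr6:29526625-29541871) are also on the plus strand. Exons of 5 members share bases with a neighbouring gene, 45 bp between Irf7 and Phrf1, 123 between Irf9 and Rnf31, 88 between Irf3 and Bcl2l12, 135 between Irf1 and Gm17334 and 411 between Irf5 and Tnpo3. No source used here gives the strand setting of the counting, so reads in those bases cannot be assigned with certainty. No such overlap was found for Irf2 or Irf4.

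Stretches before an annotated start of 4 members are shown from RefSeq on GRCm38.p6. These members bear on the comparisons below, and their stretches differ in the elements read by ISGF3 or STAT dimers. Windows ran from 250 bases before to 50 after each annotated start, and bases inside exons were left out. Capitals mark matches, on either strand, to an ISRE core (GAAA, any 2 bases, GAAA) or a STAT element called GAS (TTCNNNGAA). The Irf7 stretch is chr7:141266482-141266674 on the minus strand and the Irf9 stretch chr14:55604329-55604467 on the plus strand. The Irf9 stretch precedes the RefSeq start at 55604579 and lies inside the Irf9 gene as annotated in GENCODE. The window of the other Irf9 start, 55603985, began inside an exon and gave 0 bases. The Irf1 stretch is chr11:53769764-53770013 and the Irf2 stretch chr8:46739495-46739731, both on the plus strand.
Irf7: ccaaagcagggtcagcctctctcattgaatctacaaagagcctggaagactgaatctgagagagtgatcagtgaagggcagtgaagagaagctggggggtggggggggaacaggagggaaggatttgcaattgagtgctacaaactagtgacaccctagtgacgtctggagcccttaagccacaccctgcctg
Irf9: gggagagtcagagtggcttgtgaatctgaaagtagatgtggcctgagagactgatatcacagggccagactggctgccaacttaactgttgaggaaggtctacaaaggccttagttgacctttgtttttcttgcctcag
Irf1: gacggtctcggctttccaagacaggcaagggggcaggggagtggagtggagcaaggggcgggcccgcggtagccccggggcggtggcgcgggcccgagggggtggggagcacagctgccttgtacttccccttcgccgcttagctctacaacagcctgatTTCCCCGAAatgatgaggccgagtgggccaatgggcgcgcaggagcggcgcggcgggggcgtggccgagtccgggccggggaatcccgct
Irf2: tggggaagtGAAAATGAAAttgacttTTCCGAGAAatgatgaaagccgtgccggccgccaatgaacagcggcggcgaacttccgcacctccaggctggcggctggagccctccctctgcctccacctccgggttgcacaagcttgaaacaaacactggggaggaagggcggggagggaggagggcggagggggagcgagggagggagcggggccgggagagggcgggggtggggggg

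Irf1 held 1 GAS match, TTCCCCGAA, whose bases lie 90 to 82 before its start. Irf2 held 1 ISRE match, GAAAATGAAA, at 241 to 232 before the start, and 1 GAS match, TTCCGAGAA, at 224 to 216. Neither set of letters was found in the windows of the other 5 members, which says nothing of binding elsewhere. Among 32851 windows of 300 bases, 3.44% held the ISRE letters and 8.3% the GAS letters. Of the 28 genes with a window on the list of interferon-stimulated genes used below, 14 (50%) held the ISRE letters and 7 (25%) the GAS letters.

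In vehicle A, the members fell into a different order in the 2 cell types. Levels between genes are given as CPM per kilobase of exon, scaled over all 32 libraries. In LSK cells (n = 4), Irf1 was highest at 37.1 (range 24.3 to 69.5), followed by Irf9 at 21.0 (14.2 to 34.6), Irf3 at 20.3 (14.9 to 31.3), Irf5 at 19.6 (9.22 to 33.5) and Irf7 at 16.8 (7.73 to 22.5). The ranges of neighbours in this order overlapped, while those of Irf1 and Irf7 did not. Irf2 followed at 5.84 (3.85 to 10.5), with a range that reaches those of Irf5 and Irf7. Irf4 was last at 1.49 (0.36 to 3.75), below every value of Irf2. In MEPs (n = 3), Irf3 led at 21.0 (16.5 to 27.9), ahead of Irf9 at 15.9 (10.4 to 22.6), whose range overlaps it. Irf7 followed at 7.198 (5.64 to 9.81), below Irf9 in every library. Irf2 at 2.72 (2.19 to 3.06), Irf1 at 2.09 (1.02 to 4.204) and Irf5 at 1.82 (1.19 to 2.19) overlapped or touched one another, and Irf4 was last at 0.336 (0.253 to 0.381).

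**Figure D1:**
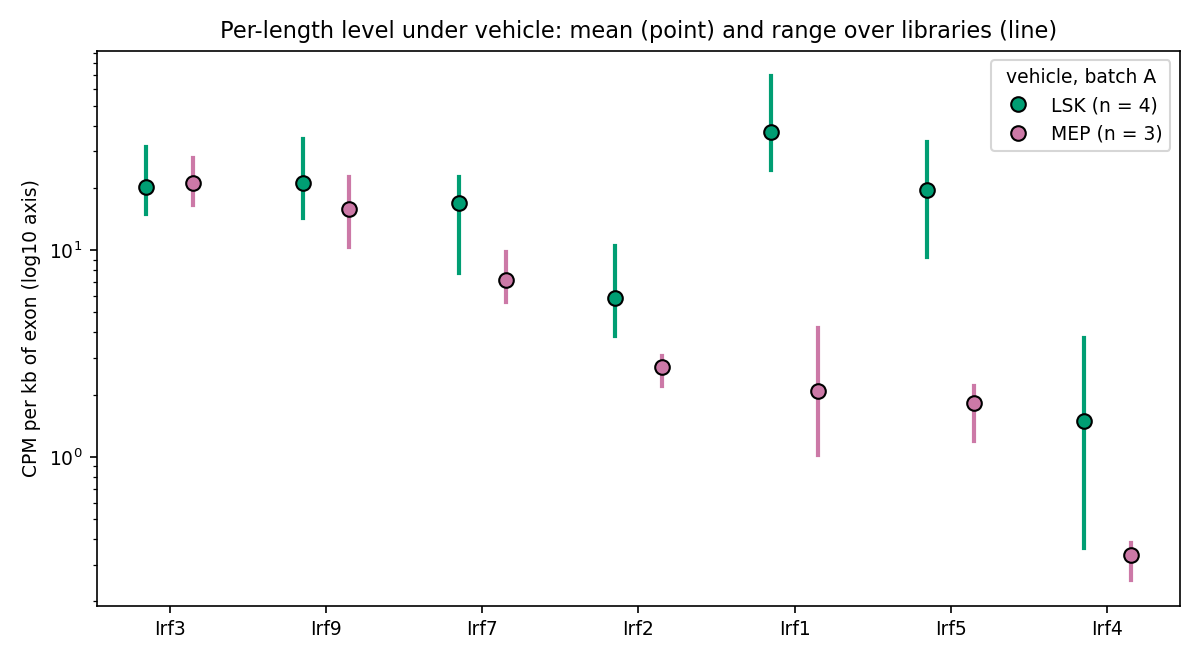
Level of each gene in vehicle A as CPM per kilobase of exon on a log10 axis, with a point for the mean and a line for the range over 4 LSK and 3 MEP libraries. Irf3 and Irf9 sit at similar heights in both cell types, and Irf1 and Irf5 sit far lower in MEPs.

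Tested directly, 5 of the 7 genes were lower in MEPs than in LSK cells of vehicle A, where 17.4% of 28378 genes were called and 8.71% were lower. The largest difference was that of Irf1, with a log2 difference of -4.15 ± 0.65 (edgeR adjusted p = 1.24e-05), followed by Irf5 at -3.42 ± 0.53 (edgeR adjusted p = 1.13e-05). Irf4 differed by -2.13 ± 0.58, Irf7 by -1.23 ± 0.34 and Irf2 by -1.10 ± 0.30 on the log2 scale (edgeR adjusted p = 0.00736, 0.00859 and 0.00665). Irf3 (0.05 ± 0.29) and Irf9 (-0.41 ± 0.29) were not called, with 95% intervals from -0.51 to 0.62 and from -0.98 to 0.17. Over genes with a mean of at least 10 CPM alone, where 55.9% were called, Irf9 passed at -0.70. LSK vehicle libraries also held higher sums of markers of other blood cells than MEPs, which do not show which cells the RNA came from. Summed over 10 B and plasma cell markers they held 560 to 11583 CPM against 13.9 to 17.1 in MEPs, and over 8 dendritic cell markers 747 to 4316 against 51.3 to 65.2. Without LSK vehicle A replicate 4, the library with 11583 CPM of B and plasma cell markers, the difference of Irf4 was -1.11 and no longer passed (edgeR adjusted p = 0.163). Irf7 and Irf2 did not pass without MEP vehicle A replicate 3 (edgeR adjusted p = 0.0606 and 0.051). The call of Irf7 was also lost without MEP vehicle A replicate 2, that of Irf4 without MEP vehicle A replicate 1, and that of Irf2 without LSK vehicle A replicate 2 (edgeR adjusted p = 0.0553, 0.053 and 0.0728). Irf4 was not called with the replicate block (-1.43, edgeR adjusted p = 0.08) or in voom with an animal block (-1.45, limma adjusted p = 0.0958). The part of other cell types in these differences was not tested.

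Irf7, the amplifier of the type I interferon response and itself a target of ISGF3, moved in opposite directions under the 2 treatments of MEPs. In vehicle A its level was 33.0, 21.5 and 20.3 CPM in replicates 1 to 3. At TAM day 3 it was 73.2, 133.5, 147.0 and 93.8 CPM, and at day 7 it was 92.9, 56.8 and 117.1. Every TAM library lay above every vehicle A library. Under ruxolitinib it was 7.36, 5.44 and 7.16 CPM, against 41.8, 30.4 and 25.9 in vehicle C. All 3 ruxolitinib libraries lay below all vehicle libraries of either batch.

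**Figure D2:**
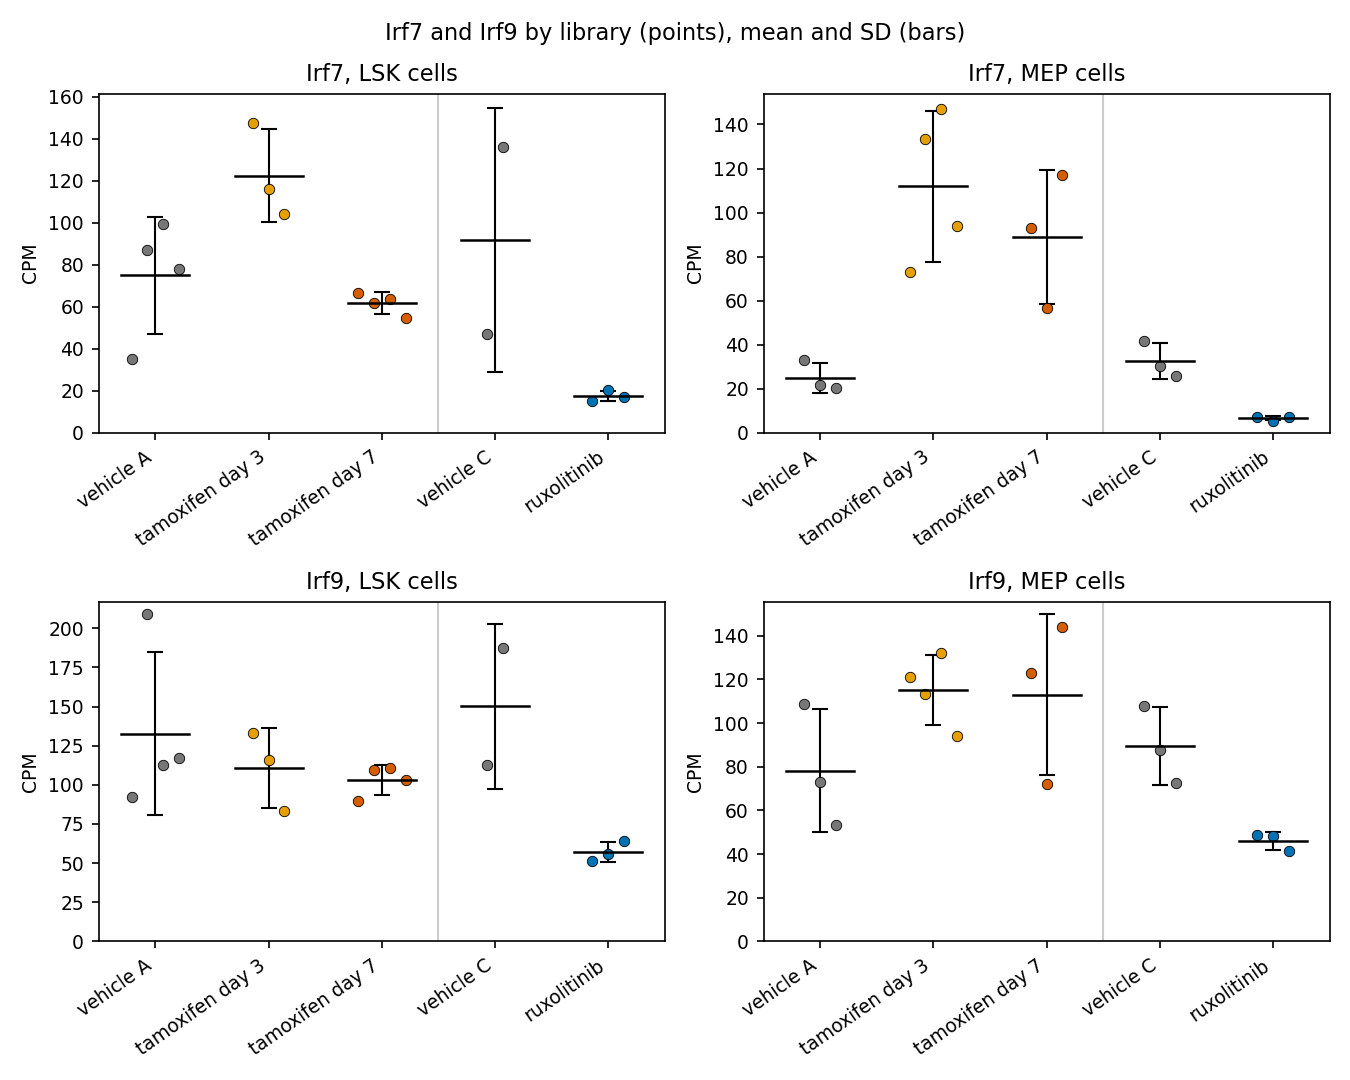
CPM of Irf7 and Irf9 in each of the 32 libraries by group, with the mean and SD as bars. In MEPs, Irf7 sits at 56.8 to 147.0 CPM under TAM and at 5.44 to 7.36 under ruxolitinib, on either side of both vehicle groups.

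The fitted log2 change of Irf7 in MEPs was 2.16 ± 0.30 at TAM day 3 (edgeR adjusted p = 0.000153), where it was the 1 member called and 1.21% of 25274 genes were called, 0.886% higher. At day 7 it was 1.83 ± 0.30 (edgeR adjusted p = 0.00015), again the 1 member called, beside 8.42% of genes called and 1.38% higher. Under ruxolitinib it was -2.30 ± 0.31 (edgeR adjusted p = 6.36e-05). There, 3 members fell, beside 42% of genes called and 38.5% lower, a background that differed with level: 53.2% of genes under a mean of 10 CPM were lower and 7.67% of genes above it. The difference between the day 7 TAM effect and the ruxolitinib effect was 4.13 ± 0.43 for Irf7 (edgeR adjusted p = 5.69e-07), in a test that called 46% of genes, 36.5% in that direction. That share also differed with level. Of genes with a mean of at least 10 CPM, 5.54% were higher and 27.4% lower, and of genes below it 51.3% were higher. Between day 3 and day 7 of TAM, Irf7 was not called in MEPs (log2 difference -0.33 ± 0.28, 95% interval -0.87 to 0.21). That comparison called 0 members by edgeR, 0 by DESeq2 and 0 at an unadjusted p under 0.05, with 7.47% of genes called. Between the vehicle libraries that share an animal number, Irf7 was higher in batch C by 0.39 on the log2 scale (0.34 to 0.49 over 3 pairs), a shift between batches without treatment.

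Plasmacytoid dendritic cells, which are rich in IRF7, were tracked by 8 markers. Their summed level in MEP libraries was 84.8 to 159 CPM in vehicle A, 98.9 to 129 at TAM day 3 and 90.1 to 138 at day 7. In batch C it was 94.8 to 175 with vehicle and 82.3 to 116 with ruxolitinib. These ranges overlap between each treatment and its vehicle, and no marker was at 0 in all libraries of a group. The sum, however, is carried by Bst2 and Tcf4, which made up 48.6% and 48.5% of it in vehicle C and 53.6% and 45.7% under ruxolitinib in MEPs. The list median in MEPs under ruxolitinib was -1.90, beside -1.07 over all genes, of which 38.5% were lower. Gene by gene, 4 of the 8 markers fell there. These were Siglech, a surface receptor of plasmacytoid dendritic cells (-2.62 ± 0.77, from 1.13 to 0.18 CPM), Ccr9, a homing receptor (-2.31 ± 0.56, from 1.31 to 0.26 CPM), Pacsin1 and Klk1, both from under 1 CPM. Of genes under a mean of 10 CPM, 53.2% were lower in that comparison, with a median log2 change of -2.27. The 4 falls are thus near the background of genes at their level. Bst2 (-0.12 ± 0.38) and Tcf4 (-0.35 ± 0.23) were not called. In LSK cells under ruxolitinib edgeR called 0 of the 8, with 4 at an unadjusted p under 0.05 and a median of -1.45 beside -0.25, and Siglech read 1.06 CPM against 4.12 in vehicle C (-1.97 ± 0.58, edgeR adjusted p = 0.434). Under TAM, 0 of the 8 were called in MEPs at day 3, with 0 at an unadjusted p under 0.05. At day 7, 1 was higher, Ly6d, beside 1.38% of all genes. The part of plasmacytoid dendritic cells in the fall of Irf7 was not tested.

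Sums of other blood cell markers also differed in MEPs in some of these comparisons. At day 7 B and plasma cell markers summed to 46.9 to 73.6 CPM against 13.9 to 17.1 in vehicle A, and neutrophil markers to 42.5 to 72.6 against 12.9 to 14.6. T and NK cell markers summed to 51.4 to 102 CPM against 8.64 to 28.5, and monocyte markers to 50.8 to 65.6 against 18.6 to 26.8. The 10 LSK markers summed higher too, at 741 to 1271 CPM at day 7 and 579 to 802 at day 3 against 283 to 588, although day 3 overlaps vehicle A. Of the 10 markers of the MEP sort, 6 fell at day 7, with a median of -1.76 beside 0.21 over all genes. Of all genes, 7.03% were lower there. Among genes with a mean of at least 10 CPM, 20.4% were lower and the median was -0.38. Under ruxolitinib T and NK cell markers summed to 90.9 to 116 CPM against 7.11 to 36.7 in vehicle C, without overlap. B and plasma cell markers overlapped vehicle C, at 8.30 to 17.1 CPM against 4.17 to 12.8. Neutrophil markers were at 36.9 to 151 CPM under ruxolitinib against 4.37 to 13.4. Monocyte markers were at 31.5 to 58.8 CPM there against 8.41 to 18.3, and LSK markers at 735 to 787 against 211 to 554. Single genes carry some of these sums: 1 of 7 tested T and NK cell markers was called higher and 4 lower, and 3 of 9 neutrophil markers were called higher and 3 lower. Of all genes, 3.43% were higher and 38.5% lower under ruxolitinib. Sums of T and NK cell, neutrophil, monocyte and LSK markers were thus higher at day 7, where Irf7 rose, and under ruxolitinib, where it fell. At TAM day 3, where Irf7 also rose, these sums overlapped vehicle A. T and NK cell markers were at 6.37 to 15.1 CPM and neutrophil markers at 12.0 to 24.5. Monocyte markers were at 18.1 to 30.4 CPM, and B and plasma cell markers, at 12.4 to 26.2, overlapped as well. The part of these cells in the rise or fall of Irf7 was not tested.

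In LSK cells, Irf7 was also lowest under ruxolitinib, at 15.3, 20.2 and 16.9 CPM. The 2 vehicle C libraries differed from each other, at 47.2 CPM for animal 12 and 136.1 for animal 18, and both lay above all ruxolitinib libraries. The log2 change was -2.39 ± 0.40 (edgeR adjusted p = 0.0498), the 1 member among 6 genes called in all (0.0223% of 26930, 0.0149% lower). The call is at the threshold, and the edgeR or DESeq2 adjusted p was between 0.000641 and 0.278 over the alternatives. Without vehicle C replicate 2, the library of animal 18, the change was -1.44 and was not called (edgeR adjusted p = 0.21). Without ruxolitinib replicate 1, 2 or 3 the adjusted p was 0.278, 0.189 or 0.152, with log2 changes of -2.30, -2.51 and -2.25. The call was also lost with RLE factors, with the replicate block and with the compared groups alone (edgeR adjusted p = 0.0627, 0.0807 and 0.179), while the direction stayed the same. Irf7 was higher in vehicle C than in vehicle A by 0.53 on the log2 scale in the 2 LSK pairs that share an animal.

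After TAM, Irf7 in LSK cells read 147.3, 115.9 and 104.1 CPM at day 3 and 66.6, 61.6, 63.9 and 54.5 at day 7, against 35.05, 87.0, 99.4 and 78.1 in vehicle A. The day 3 libraries lay above all vehicle A libraries, and the day 7 libraries lay within their range. Markers of other cells differed as well: neutrophil markers summed to 6966 to 14009 CPM at day 7 against 1098 to 3914 in vehicle A. Of these markers, 4 of 9 were called higher, beside 0.0557% of all genes. At day 3 erythroid markers summed to 1634 to 3534 CPM against 553 to 1713, with 0 of 10 called by edgeR and 6 at an unadjusted p under 0.05. The part of these cells in the values of Irf7 was not tested. The log2 change at day 3 was 0.71 ± 0.33 and was not called (edgeR unadjusted p = 0.0461, adjusted p rounding to 1). At day 7 it was -0.28 ± 0.31 (95% interval -0.89 to 0.33). The step from day 3 to day 7 was -0.99 ± 0.33 (edgeR adjusted p = 0.302), in a comparison that called 0 members by edgeR and 0 by DESeq2 and 1 at an unadjusted p under 0.05, beside 0.00743% of genes.

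The effect of TAM on Irf7 was tested between the cell types. At day 7 it was 2.01 ± 0.47 larger in MEPs on the log2 scale (edgeR adjusted p = 0.0389), the 1 member called where 0.458% of genes were called and 0.296% higher. Over the alternatives the edgeR, DESeq2 or voom adjusted p ranged from 0.000226 to 0.141, and the difference from 1.79 to 2.39. Leaving out any of 9 single libraries ended the call, with adjusted p of 0.055 to 0.141. These were LSK TAM day 7 replicates 1, 2 and 4, LSK vehicle A replicates 3 and 4, MEP TAM day 7 replicates 1 and 3, and MEP vehicle A replicates 2 and 3. The call was also lost with the replicate block (1.99, edgeR adjusted p = 0.0544) and in voom with an animal block (1.88, limma adjusted p = 0.0883). Over genes with a mean of at least 10 CPM alone, where 11.4% were called, Irf9 passed beside Irf7. At day 3 the difference was 1.45 ± 0.47 (edgeR adjusted p = 0.892, 0.0529% of genes called). For ruxolitinib it was 0.26 ± 0.53, with a 95% interval from -0.77 to 1.29, and 0.292% of genes were called. The day 3 comparison called 0 members by edgeR or DESeq2 and 3 at an unadjusted p under 0.05, and the ruxolitinib comparison 0, 0 and 0.

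**Figure D3:**
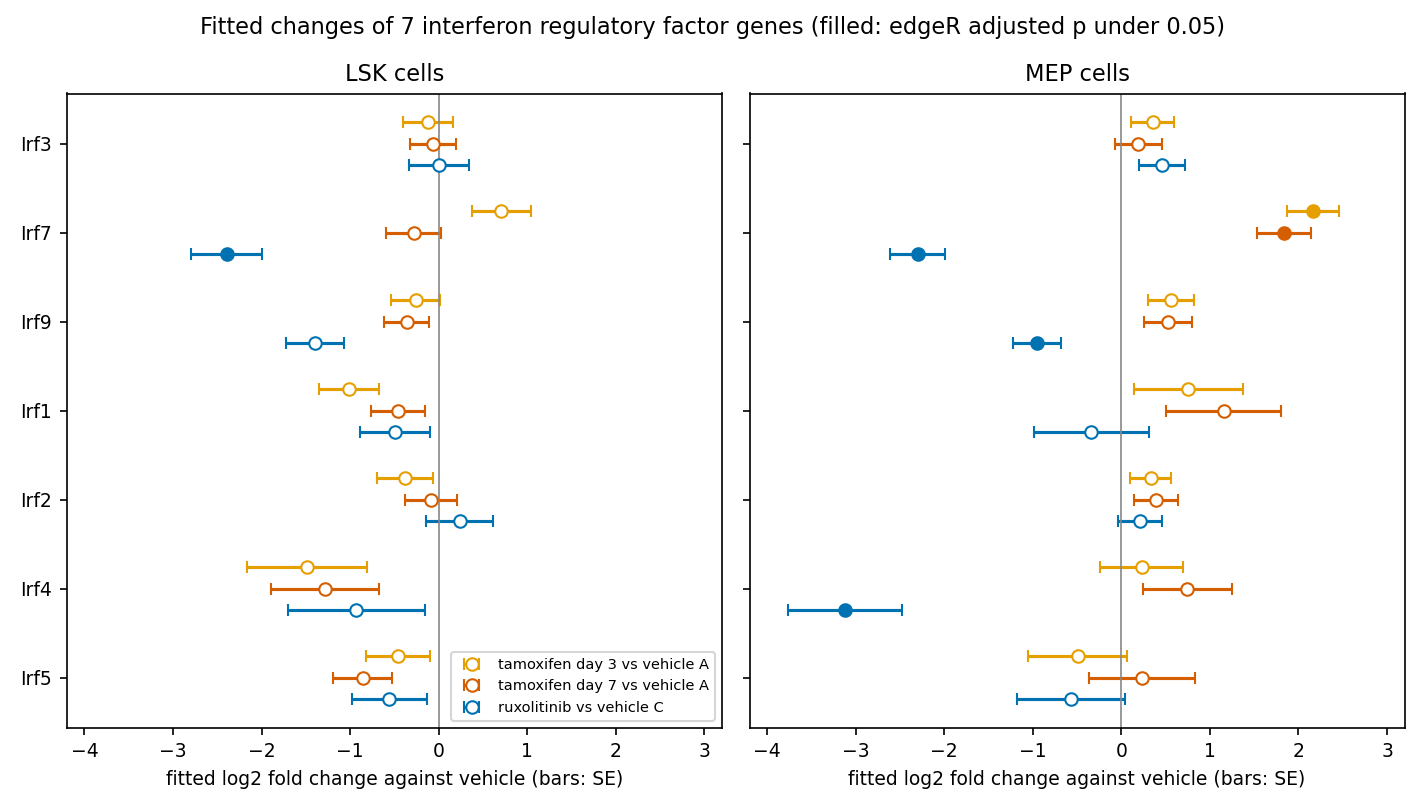
Fitted log2 change of each gene against vehicle of its batch, with its SE as bars, in LSK cells and MEPs. Filled points have an edgeR adjusted p under 0.05: Irf7 in both MEP comparisons of TAM and in both ruxolitinib comparisons, and Irf9 and Irf4 in MEPs under ruxolitinib.

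The ratio of Irf7 to Irf3 counts within a library does not depend on sequencing depth or on the scaling between libraries. IRF3 is the member that is held ready in most cells and activated by phosphorylation. In MEPs the ratio was 0.331 to 0.408 in vehicle A, 0.804 to 1.60 at TAM day 3 and 0.980 to 1.32 at day 7. In batch C it was 0.290 to 0.433 with vehicle and 0.0413 to 0.0744 with ruxolitinib. The 2 vehicle groups covered nearly the same range, all TAM libraries lay above it and all ruxolitinib libraries below it. In LSK cells the ratio was 0.514 to 1.34 in vehicle A, 1.49 to 1.71 at day 3 and 0.682 to 0.996 at day 7. In batch C it was 0.620 to 0.781 with vehicle and 0.113 to 0.164 with ruxolitinib. Such a ratio shows unequal change of the pair, not which of them changed.

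**Figure D4:**
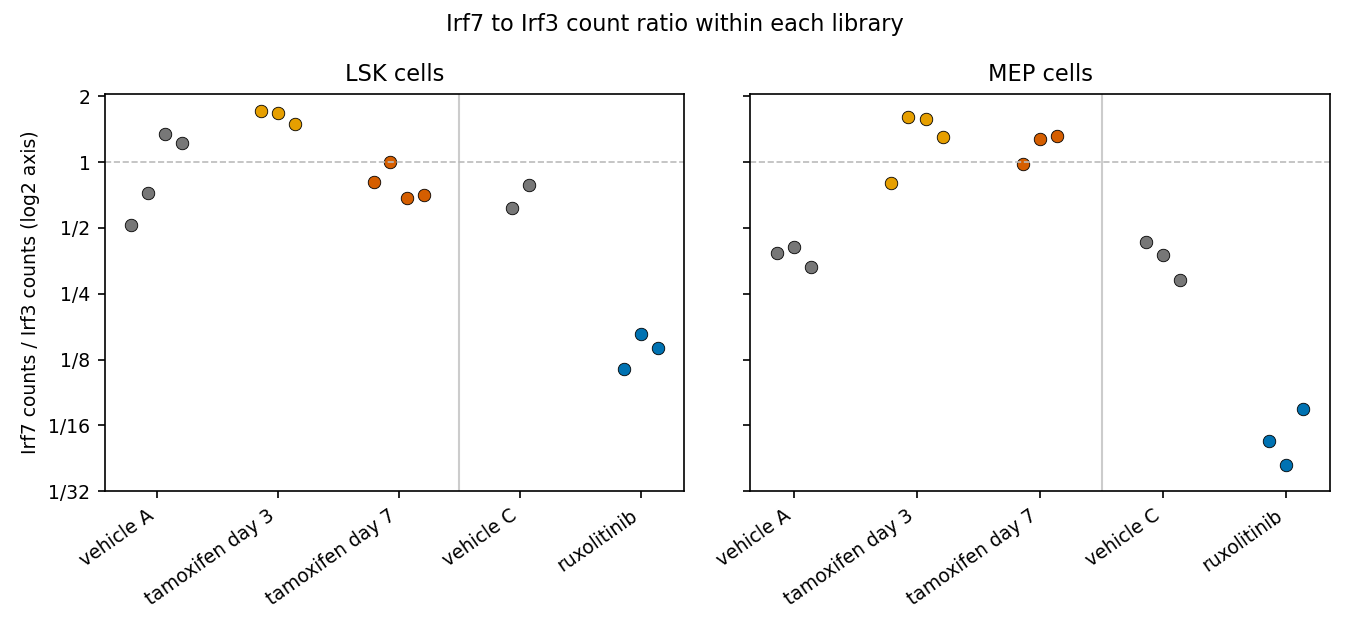
Ratio of Irf7 to Irf3 counts in each library on a log2 axis, by group. The ruxolitinib libraries of both cell types lie below 0.164 or at it, and the MEP libraries under TAM lie between 0.804 and 1.60.

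Shares were taken of the summed CPM per kilobase of exon of the 7 genes. In MEPs, Irf7 made up 14.1% ± 0.116 (SD, n = 3) in vehicle A, 34.9% ± 6.07 (n = 4) at day 3 and 30.6% ± 1.33 (n = 3) at day 7. In vehicle C it made up 14.9% ± 1.23 and under ruxolitinib 3.46% ± 0.863 (n = 3 each). Irf3 took most of the family's summed level under ruxolitinib, with 68.1% ± 3.82 against 45.4% ± 5.59 in vehicle C. In LSK cells, Irf7 moved from 12.8% ± 2.64 (n = 2) in vehicle C to 3.83% ± 0.641 (n = 3) under ruxolitinib, and Irf3 from 19.99% ± 0.872 to 30.2% ± 1.01. These shares take gene length into account and always sum to the whole, so that a fall of a member raises the others.

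Irf9, the DNA-binding subunit of ISGF3, fell in MEPs under ruxolitinib. It read 48.8, 48.2 and 41.3 CPM there, against 108.0, 87.9 and 72.6 in vehicle C, and the groups did not overlap. The log2 change was -0.96 ± 0.27 (edgeR adjusted p = 0.00755). Measured against Irf3 in the same libraries, the Irf9 count ratio was 0.351 to 0.430 under ruxolitinib and 0.812 to 1.12 in vehicle C. In LSK cells Irf9 read 51.2, 56.0 and 63.9 CPM under ruxolitinib against 112.7 and 187.6 in vehicle C, again without overlap. Its log2 change there, -1.40 ± 0.33, was not called (edgeR adjusted p = 0.282). It passed over genes with a mean of at least 10 CPM alone (-1.54, edgeR adjusted p = 0.00611), where 0.0918% of genes were called, and with pooled vehicle batches (-1.23, edgeR adjusted p = 0.0241). Pooling mixes the batches and counts vehicle libraries of a shared animal number as independent. The Irf9 to Irf3 ratio was 0.381 to 0.536 against 1.08 to 1.48. The difference of the 2 ruxolitinib effects between cell types was 0.61 ± 0.47 (95% interval -0.30 to 1.53).

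Under TAM the values of Irf9 in MEPs were 121.3, 113.5, 132.1 and 94.3 CPM at day 3 and 123.2, 71.97 and 143.9 at day 7, against 108.5, 72.9 and 53.4 in vehicle A. Both TAM groups overlapped the vehicle group. The log2 changes were 0.56 ± 0.26 and 0.53 ± 0.27 and were not called (edgeR adjusted p = 0.657 and 0.304). Tested over genes with a mean of at least 10 CPM alone, Irf9 passed at both times, at 0.64 on day 3 (edgeR adjusted p = 0.0302) and 0.93 on day 7 (edgeR adjusted p = 0.00113). Those tests called 9.47% and 34.3% of 8161 genes, and at day 7 Irf2 (0.78) and Irf3 (0.57) passed as well. DESeq2 called Irf9 and Irf2 beside Irf7 at day 7, with 19.5% of its genes. In MEPs the TAM day 7 effect exceeded the ruxolitinib effect by 1.49 ± 0.38 (edgeR adjusted p = 0.00438). There, 36.5% of all genes and 5.54% of genes with a mean of at least 10 CPM were higher. In LSK cells that contrast was 1.03 ± 0.42 for Irf9 and 2.11 ± 0.50 for Irf7 (edgeR adjusted p = 0.744 and 0.733). It called 0 members by edgeR, 0 by DESeq2 and 2 at an unadjusted p under 0.05, beside 0.00371% of genes. Irf9 in LSK cells read 83.0 to 133.3 CPM at day 3 and 89.7 to 110.8 at day 7, both within the vehicle A range of 91.9 to 208.9 or just under it (log2 changes -0.26 ± 0.28 and -0.36 ± 0.26).

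Stat2, which encodes a partner of IRF9 in ISGF3, was not called in any treatment comparison. In MEPs it changed by 0.85 ± 0.23 at TAM day 3, 0.60 ± 0.24 at day 7 and 0.16 ± 0.24 under ruxolitinib (edgeR adjusted p = 0.0775, 0.158 and 0.626). In LSK cells under ruxolitinib its change was -0.42 ± 0.31 (edgeR adjusted p = 0.64).

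Irf3 was not called in any comparison by the edgeR fit of all genes. In MEPs it read 52.8 to 85.6 CPM in vehicle A, 72.3 to 93.3 at TAM day 3 and 44.5 to 94.8 at day 7. In batch C it read 81.4 to 96.5 with vehicle and 96.2 to 139 with ruxolitinib. The ruxolitinib change was 0.46 ± 0.26 (edgeR adjusted p = 0.163), and with RLE factors it was 0.57 and passed (edgeR adjusted p = 0.0414), as it did in DESeq2 (0.57, adjusted p = 0.0397) and with pooled vehicle batches (0.65, edgeR adjusted p = 0.0223). That pooling mixes the batches and counts vehicle libraries of a shared animal number as independent. Irf3 was also higher in batch C than in batch A vehicle libraries of the same animals by 0.44. In LSK cells its changes were -0.12 ± 0.28, -0.06 ± 0.26 and 0.01 ± 0.33 at day 3, day 7 and under ruxolitinib, with 95% intervals within -0.67 and 0.66.

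**Figure D5:**
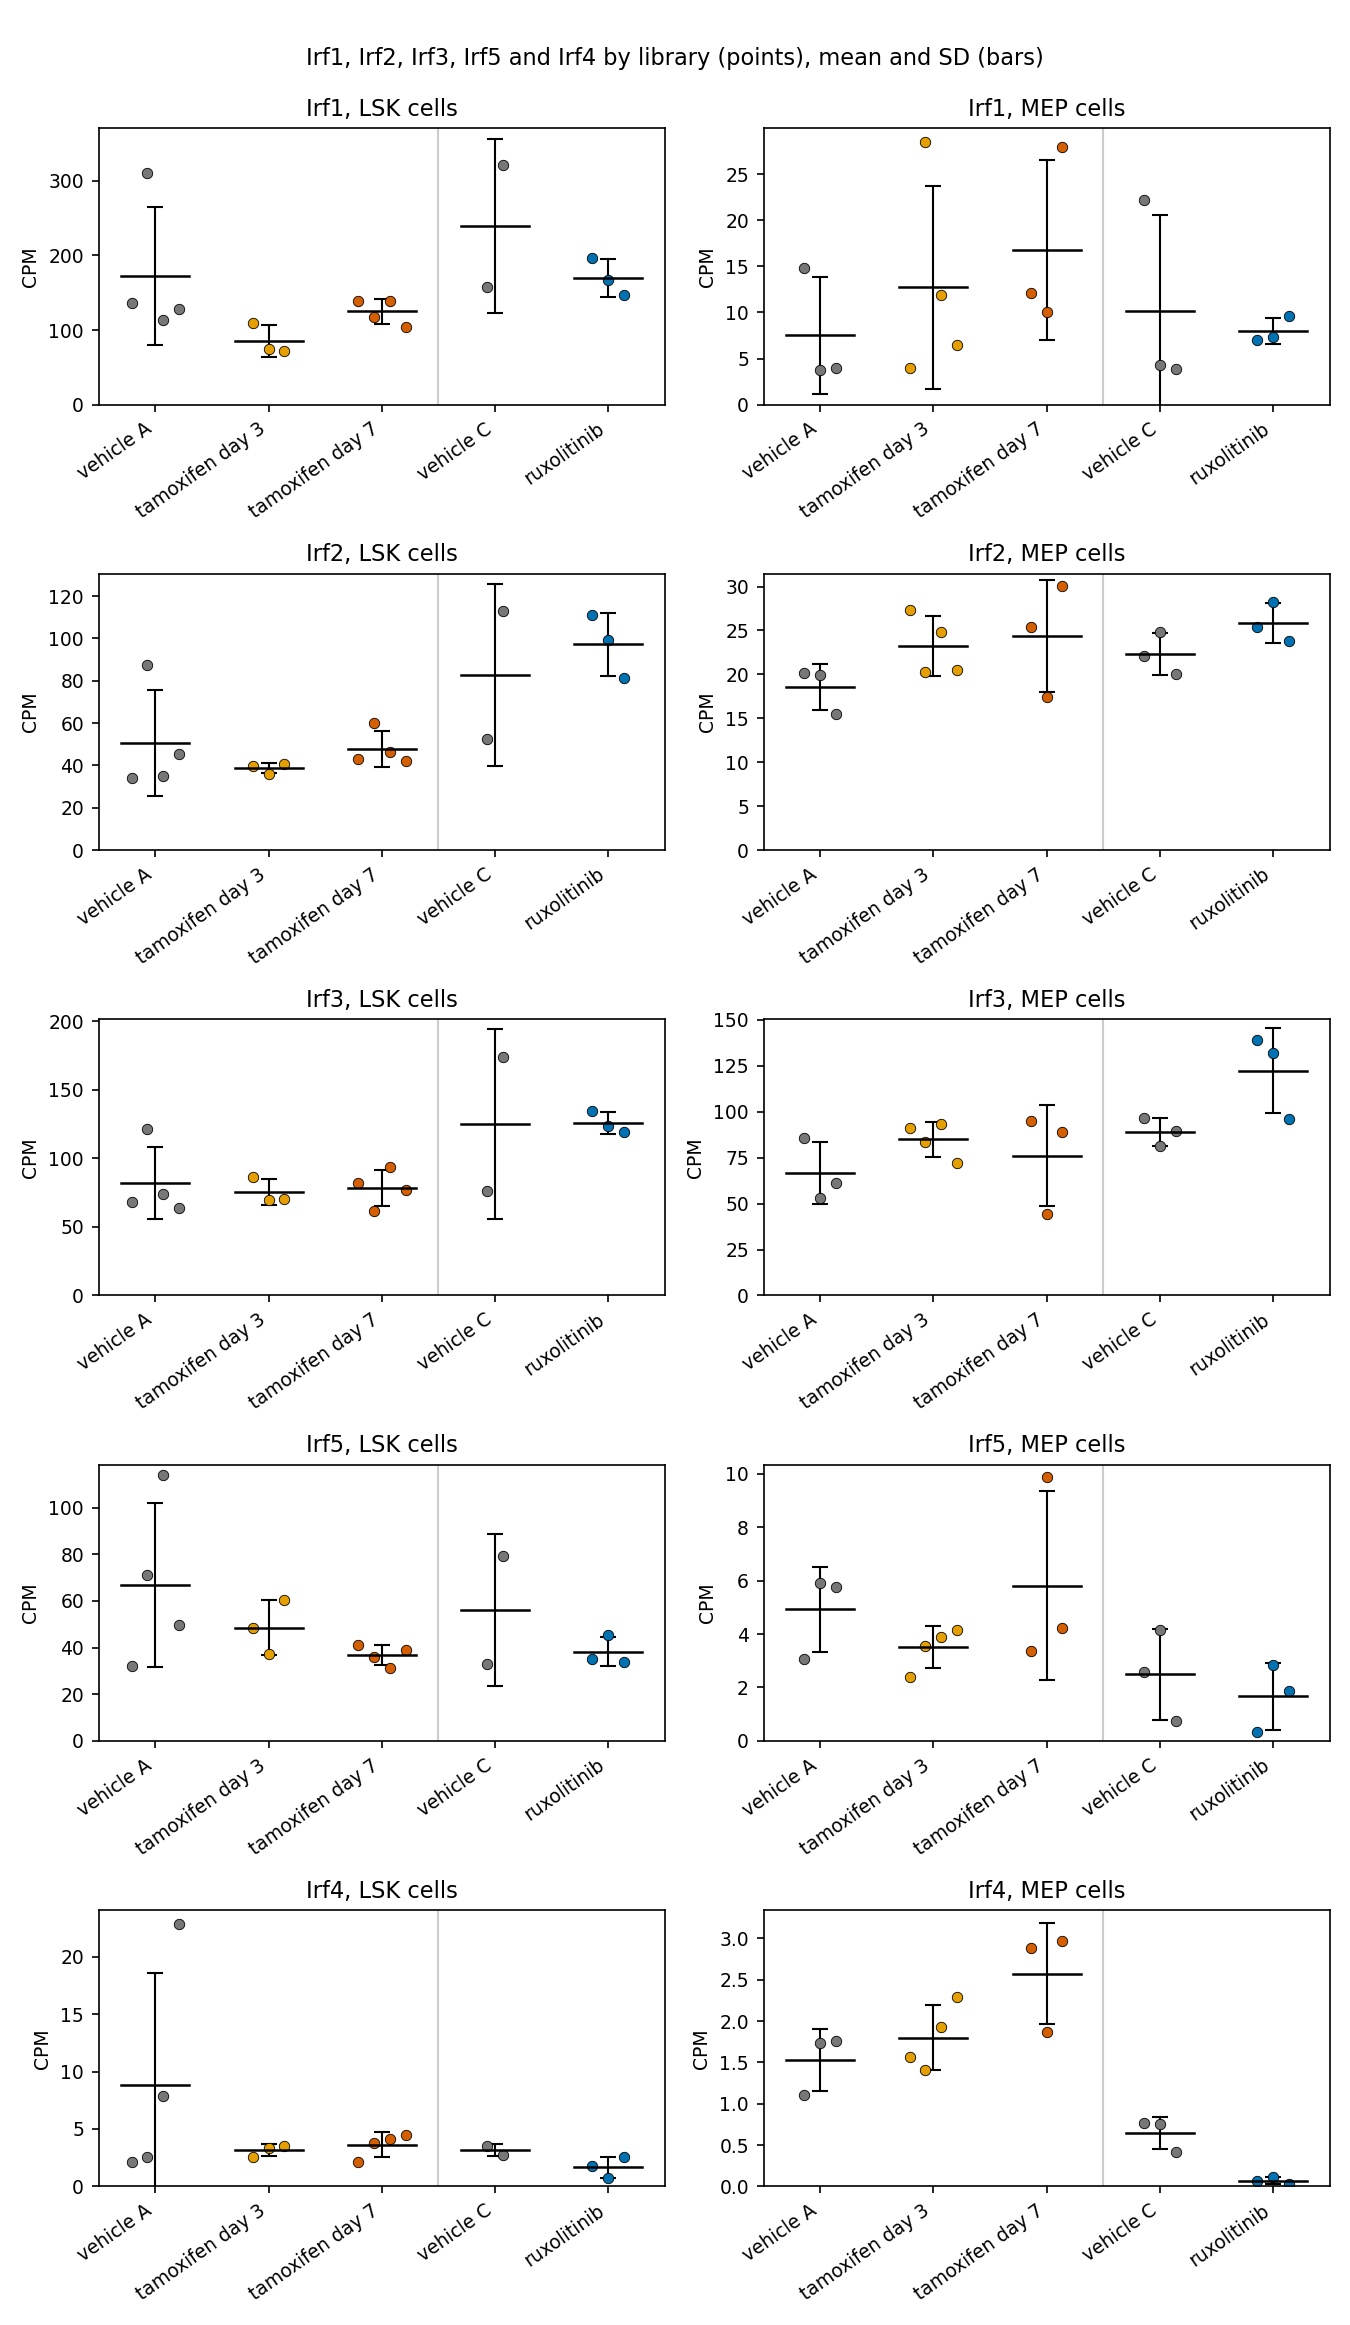
CPM of Irf1, Irf2, Irf3, Irf5 and Irf4 in each library by group, with mean and SD as bars. LSK vehicle A replicate 2 stands high for Irf1 at 310 CPM and replicate 4 stands high for Irf4 at 22.9 CPM.

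Irf1, an activator, and Irf2, which opposes it, were called in no treatment comparison by that fit. In LSK cells Irf1 read 136, 310, 113 and 128 CPM in vehicle A and 110, 75.2 and 71.3 at TAM day 3. All day 3 libraries lay below all vehicle libraries. The log2 change was -1.01 ± 0.34 and did not pass (edgeR unadjusted p = 0.00816, adjusted p = 0.765). At that time point edgeR called 0 of the 7 members and 0% of 26930 genes, with 3 members at an unadjusted p under 0.05. DESeq2 called 0 members and 0.41% of its genes. At day 7 Irf1 read 104 to 139 CPM (-0.46 ± 0.31), where edgeR called 0 members beside 0.104% of genes, with 2 at an unadjusted p under 0.05 and 0 by DESeq2. Under ruxolitinib it read 147 to 197 CPM against 157 and 322 in vehicle C (-0.49 ± 0.39).

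The 310 CPM of LSK vehicle A replicate 2 came from animal 18, whose batch C library also held the most Irf1, at 322 CPM. The same 2 libraries had the highest LSK marker sums of their groups, 4338 and 4685 CPM, and the highest levels of Irf2, Irf3 and Irf9. They also had the lowest scaling factors (TMM) of their groups, 0.8 and 0.7, and a low factor raises all CPM of a library. Irf2 read 87.4 CPM in that library of batch A and 34.2 to 45.3 in the other 3. Its group ranges in LSK cells were 36.2 to 40.8 CPM at day 3, 42.0 to 60.0 at day 7, 52.3 and 113 in vehicle C, and 81.5 to 111 under ruxolitinib. The count ratio of Irf1 to Irf2, which is free of the level shared within a library, was 2.85 to 3.01 with vehicle and 1.68 to 1.80 with ruxolitinib in batch C, and 2.83 to 3.99 in vehicle A and 1.75 to 2.78 at day 3. At day 7 it was 1.962 to 3.23, which overlaps vehicle A. In MEPs it ran from 0.146 to 1.40 over all groups, and the treated groups overlapped their vehicle.

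In MEPs, Irf1 was low and uneven. Vehicle A read 14.9, 3.75 and 4.004 CPM and vehicle C 22.2, 4.29 and 3.85, the high value belonging to animal 12 in both batches. At TAM day 3 it read 3.99, 28.5, 11.9 and 6.45 CPM and at day 7 12.2, 10.1 and 28.0, while ruxolitinib gave 7.03 to 9.63. The log2 changes were 0.76 ± 0.62, 1.15 ± 0.65 and -0.34 ± 0.65 and were not called (edgeR adjusted p rounding to 1, 0.371 and 0.699). Irf2 in MEPs stayed between 15.49 and 30.1 CPM over all groups, with changes of 0.33 ± 0.23, 0.39 ± 0.25 and 0.21 ± 0.25.

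Irf4 in MEPs rests on few reads. Ruxolitinib libraries held 2, 4 and 1 counts, against 22, 23 and 13 in vehicle C and 24, 44 and 43 in vehicle A. From the summed counts of 58 and 7, the level was 9.15-fold higher in vehicle C than under ruxolitinib, with an exact 95% interval from 4.17 to 23.8 that covers counting error only. The log2 change was -3.12 ± 0.64 (edgeR adjusted p = 0.000807). As most genes under 10 CPM were lower in the same comparison, with a median log2 change of -2.27 over those genes, the fall of Irf4 is near the background of genes at its level. Irf4 was also lower in batch C than in batch A vehicle libraries of the same animals, by -0.82. TAM left 40, 36, 53 and 61 counts at day 3 and 80, 40 and 67 at day 7 (0.23 ± 0.47 and 0.75 ± 0.50, not called). All day 7 libraries (1.87 to 2.97 CPM) lay above vehicle A (1.10 to 1.76 CPM), as did their sums of B and plasma cell markers. The TAM day 7 effect exceeded the ruxolitinib effect by 3.87 ± 0.82 (edgeR adjusted p = 0.00122), where the median over genes not reaching 10 CPM was 2.76.

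In LSK cells, Irf4 read 2.12, 2.52, 7.89 and 22.9 CPM in vehicle A. Its highest library, replicate 4, was also the library with the most B and plasma cell marker RNA (11583 CPM against 560 to 3124 in the other 3). At TAM day 3 it read 2.54 to 3.55 CPM and at day 7 2.09 to 4.49, with B and plasma cell markers at 126 to 307 and 246 to 556 CPM. The changes, -1.49 ± 0.68 and -1.28 ± 0.61, were not called (edgeR unadjusted p = 0.0417 and 0.0498). The part of B and plasma cells in these values was not tested.

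Irf5, a factor of myeloid and B cells, read 32.1, 71.3, 113.9 and 49.7 CPM in LSK vehicle A. Replicate 3, the highest, also held the most dendritic cell and monocyte marker RNA of that group, 4316 and 3480 CPM. At TAM day 3 Irf5 read 37.1 to 60.5 CPM and at day 7 31.5 to 41.2 (-0.46 ± 0.36 and -0.86 ± 0.33, edgeR adjusted p rounding to 1 and 0.361). Under ruxolitinib it read 34.0 to 45.4 CPM against 33.0 and 79.3. MEPs held 0.331 to 9.86 CPM over all groups, and no comparison within them called Irf5.

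The genes that lead to IRF activation were read from lists. Of 17 tested genes of interferon receptors, JAKs, STATs and their brakes, edgeR called 3 higher and 0 lower in MEPs at TAM day 3, with a median log2 change of 0.46 beside 0.00 over all genes, of which 0.886% were higher. The 3 were Ifnar2, a chain of the type I interferon receptor (1.67 ± 0.41), the kinase gene Jak1 (1.46 ± 0.37) and Stat5b (1.13 ± 0.27), with edgeR adjusted p of 0.0428, 0.0488 and 0.0348. At day 7 the 1 gene called was Ifnar1, the other receptor chain, which fell (log2 change -1.29 ± 0.26, edgeR adjusted p = 0.00123), beside 7.03% of all genes lower. Of genes with a mean of at least 10 CPM, 20.4% were lower at that time. Under ruxolitinib 5 rose and 1 fell, beside 3.43% of all genes higher and 38.5% lower, with a median of 0.36 against -1.07 over all genes. Usp18, an interferon-induced brake on the receptor, fell from 38.5 ± 8.43 to 7.65 ± 0.89 CPM (-2.33 ± 0.31, edgeR adjusted p = 6.01e-05, n = 3 and 3). Stat5b (0.93 ± 0.28), Ifngr1 (0.81 ± 0.25) and Stat3 (0.78 ± 0.23) were among those that rose.

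Among 22 nucleic acid sensors, adaptors and kinases upstream of IRF3, IRF5 and IRF7, 1 was higher at TAM day 3 in MEPs, 2 were higher and 1 lower at day 7, and 6 were lower under ruxolitinib. Of all genes, 0.886% were higher at day 3, and 1.38% were higher and 7.03% lower at day 7. Of genes with a mean of at least 10 CPM, 20.4% were lower at day 7. The 6 of 22 are a smaller share than the 38.5% of all genes that were lower under ruxolitinib. That background was 7.67% among genes with a mean of at least 10 CPM and 53.2% among genes below it. The RNA sensor gene Dhx58 followed the direction of Irf7 in each: 1.18 ± 0.27 at day 3, 1.18 ± 0.29 at day 7 and -1.84 ± 0.29 under ruxolitinib (edgeR adjusted p = 0.0269, 0.0082 and 0.000155). Ddx58, which encodes the sensor RIG-I, rose at day 7 by 1.64 ± 0.29 (edgeR adjusted p = 0.000348), and Myd88, the Toll-like receptor adaptor, fell by 1.17 (SE 0.27, edgeR adjusted p = 0.00545). Under ruxolitinib, Zbp1 (-2.19 ± 0.69), Tlr9 (-4.37 ± 0.93) and the cGAS gene, listed as E330016A19Rik (-1.16 ± 0.31), fell as well, the first 2 from levels under 2 CPM. The list medians were 0.16, 0.15 and -0.36, beside 0.00, 0.21 and -1.07 over all genes. Dhx58 and Ddx58 are also on the list of interferon-stimulated genes.

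Of 12 partners and co-repressors of IRFs, 0 passed edgeR in MEPs under TAM at either time, with 2 at an unadjusted p under 0.05 on day 3 and 2 on day 7. Under ruxolitinib 1 rose and 4 fell there, near the 38.5% of all genes lower, and the list median was -0.26 beside -1.07. The riser was Sfpi1, which encodes PU.1, the DNA partner of IRF4 (1.71 ± 0.56, from 0.873 ± 0.449 to 2.86 ± 1.59 CPM). The co-activator gene Ep300 fell by 0.77 (SE 0.24), from 70.7 ± 6.1 to 41.4 ± 6.82 CPM. Ciita, the class II co-activator (-2.61 ± 0.57), and Batf3, a partner of IRF4 at composite sites (-2.31 ± 0.77), fell from 3.99 ± 1.85 and 0.521 ± 0.267 CPM.

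Downstream, 40 interferon-stimulated genes with ISGF3 or IRF7 input were listed, 38 of them tested in MEPs. At TAM day 3, 11 were higher and 0 lower (median 0.99), at day 7 18 and 0 (0.82), and under ruxolitinib 0 and 21 (-0.83). Over all genes the medians were 0.00, 0.21 and -1.07, with 0.886% and 1.38% higher at the 2 times and 38.5% lower under ruxolitinib. The background under ruxolitinib depended on level. Genes with a mean of at least 10 CPM had a median of 0.11 and 7.67% lower. Genes below that level had a median of -2.27 and 53.2% lower. The list median lay between these medians, and the list was not split by level. Rsad2, which encodes the antiviral enzyme viperin, showed both directions, at 7.81 ± 0.569 CPM in vehicle A, 21.8 ± 5.86 at day 3, 7.31 ± 1.19 in vehicle C and 1.94 ± 0.364 under ruxolitinib. Xaf1 rose at day 7 from 9.97 ± 4.27 to 30.8 ± 8.65 CPM (1.63 ± 0.35, edgeR adjusted p = 0.00255). In LSK cells the 1 gene of 40 called under ruxolitinib was Rtp4 (-2.54 ± 0.38, edgeR adjusted p = 0.0263), from 83.1 ± 40.1 to 14.2 ± 2.75 CPM. There, 0.0149% of all genes were lower. The list was chosen with results of these data known, so its direction is not independent evidence.

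The 28 tested genes of the list for IRF1 and interferon gamma targets did not follow one direction in MEPs. At TAM day 7, H2-D1, a class I antigen presentation gene, fell from 954 ± 210 to 71.5 ± 25.7 CPM (-3.74 ± 0.31, edgeR adjusted p = 6.69e-09) and Tap1, the peptide transporter gene, fell by 1.61 (SE 0.48, edgeR adjusted p = 0.0322), with 0 higher. Under ruxolitinib 3 rose, including the immunoproteasome gene Psmb8 (1.37 ± 0.40, edgeR adjusted p = 0.00975), and 4 fell, including Cxcl9, Ciita and Gbp4, all from under 4 CPM. Medians were 0.34 at day 3, 0.22 at day 7 and 0.12 under ruxolitinib, against 0.00, 0.21 and -1.07 over all genes. Of all genes, 1.38% were higher and 7.03% lower at day 7, and 3.43% were higher and 38.5% lower under ruxolitinib. Genes with a mean of at least 10 CPM had a median of -0.38 at day 7, with 20.4% lower. In LSK cells Gbp4 fell at day 7 from 21.6 ± 12 to 3.58 ± 1.05 CPM (-2.59 ± 0.41, edgeR adjusted p = 0.0219). The interferon genes themselves were near the limit of detection, with a summed level of 11 genes of at most 12.1 CPM in any library.

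The genes whose pattern was most like that of each member were found by correlation over the 16 libraries of a cell type, after taking the mean vehicle of the batch from each value. These are descriptions, as libraries of a group and of an animal are not independent and part of each pattern is the difference between treatments. In MEPs, Irf7 was closest to Rsad2 (r = 0.986), Dhx58 and Xaf1 (0.983 each), and in LSK cells to Rtp4 (0.911), Dhx58 (0.903) and Oas2 (0.899). Irf9 was closest to Rtp4 (0.924) and Ifi44 (0.914) in LSK cells, but in MEPs to Tmem131 (0.964), Golgb1 (0.955) and Rnf213 (0.947). Irf1 in MEPs was closest to H2-Q6 (0.902), Nlrc5 (0.896) and H2-Q8 (0.879), and in LSK cells to Mfng (0.923), Zdhhc18 (0.919) and Tapbpl (0.912). Irf3 was closest to Stard3 (0.959) in LSK cells and to Stat5a (0.930) in MEPs, and Irf2 to Map1lc3b (0.954) and Abtb1 (0.923). For Irf4 the closest gene was the immunoglobulin segment Igkv3-1 (0.792) in LSK cells and Ppp1r9a (0.937) in MEPs. Irf5 had the lowest best match in MEPs, Zdhhc18 at 0.718, and Apobr at 0.861 in LSK cells.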

How the data were processed

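The authors deposited raw read counts per gene symbol for 32 libraries (16 LSK, 16 MEP). Per the submitters' processing notes, these counts were made with STAR and featureCounts on mm10. The sources used here give no versions, annotation or strand setting. Per the labels' protocols, TriZOL received the sorted cells, the Direct-Zol kit gave the RNA and the Takara HT-Seq kit the paired-end libraries. Of the genes, 933 had no count. Depth was 11.2 to 55.5 M counts per library, so low genes are measured less precisely in batch A. Pairs of libraries within a group all differed by more than sampling noise (chi-square per degree of freedom of at least 13.7).

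Groups came from the labels, whose titles give a batch letter for vehicle libraries only. Each treatment was compared with vehicle of its batch by the two-sided quasi-likelihood F test of edgeR 4.0.16 (R 4.3.3; TMM factors, filterByExpr with a minimum count of 10). Benjamini-Hochberg adjustment ran over all genes tested, 26930 in LSK, 25274 in MEP and 28378 in the fit of both, with a threshold of 0.05. Comparisons within a cell type used its 16 libraries. Libraries of an animal number were treated as independent, and p-values measure the spread between these libraries. CPM values are scaled by TMM factors, within a cell type unless stated. Errors are SD for CPM and SE for log2 changes.

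The members and lists were chosen with earlier results of these data known. All members were named in every comparison, up to 4 genes per list by smallest p, the 3 most similar genes per member (candidates with a mean of at least 10 CPM, log2 of CPM plus 0.5), and Jak2. Stat2, Cish and the named markers of plasmacytoid dendritic cells were added after their values were seen. Alternatives were RLE factors, no count filter, expressed genes only (mean of at least 10 CPM), DESeq2 1.42.0, the replicate block, the compared groups alone, pooled vehicle batches, limma 3.58.1 voom with an animal block, and leaving out each replicate. The fitting code was tested on simulated data. Promoters came from RefSeq.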

Additional observations from a re-analysis of the deposited data

Results flagged for a closer look

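Irf1 in LSK vehicle A replicate 2 stood apart from the other libraries of its group, at 310 CPM against 113 to 136 in the other 3. The gap was 0.882 of the range of the group. Over 3 groups of 4 libraries and 7 genes, 21 such tests were made, and chance gives about 1 such result in 20. The batch C library of the same animal number, 18, read 322 CPM. LSK vehicle A replicate 2 had a TMM factor of 0.8, against 1.2 to 1.22 in the other 3, which raises its scaled CPM beside theirs.

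The effect of TAM day 7 on Irf7 differed between the cell types, by 2.01 on the log2 scale (larger in MEPs, edgeR adjusted p = 0.0389). Irf7 was above all vehicle A values in 3 of 3 MEP libraries and within the vehicle A range in 4 of 4 LSK libraries.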

How the results depend on the processing

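Over 51 single-gene results, 708 alternatives were run: 644 kept direction and side of the threshold, 26 lost a call, 11 gained one, 27 were sign changes of values that were not called, and 0 called values changed sign. Irf7 in MEPs kept its call under every alternative run, with log2 changes of 1.93 to 2.43 at TAM day 3, 1.58 to 2.22 at day 7 and -2.39 to -2.05 under ruxolitinib. In LSK cells under ruxolitinib the count of called members, 1, was 0 with RLE factors, 0 with the replicate block (Irf7 adjusted p = 0.0807) and 0 with the compared groups alone. It was 2 over expressed genes only and 2 with pooled vehicle batches, where Irf9 joined Irf7, and 0 to 1 with a library left out. Over expressed genes only, the count was 2 at MEP TAM day 3 (Irf9 added, 0.64), 4 at day 7 (Irf2 0.78, Irf3 0.57 and Irf9 0.93 added) and 2 for the MEP minus LSK effect of TAM day 7 (Irf9 added). DESeq2 gave 3 at MEP TAM day 7 (Irf2 and Irf9 added). For the MEP minus LSK effect of TAM day 7, the replicate block gave 0 (Irf7 1.99, adjusted p = 0.0544), voom with an animal block gave 0 (1.88, adjusted p = 0.0883), and leaving out a library gave 0 to 1. The LSK contrast of TAM day 7 against ruxolitinib gave 1 with voom and an animal block, an alternative chosen after seeing the data, and 0 to 1 with a library left out (1 without LSK TAM day 7 replicate 4, Irf7). Leaving out a library gave 3 to 5 for MEP against LSK and 3 to 4 for the MEP contrast of TAM day 7 against ruxolitinib (Irf1 added without MEP vehicle A replicate 1). The cause of these changes was not tested. Over expressed genes only, both the number of tests and the scaling factors changed. The log2 changes moved as well, for Irf7 at MEP TAM day 7 from 1.83 to 2.22.

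The replicate numbers do not pair the samples: deviations of libraries with the same number correlated at -0.36 to 0.39 over the 6 treatment comparisons. The replicate block also lost Irf4 in MEP against LSK (-1.43, adjusted p = 0.08) and changed no other call among the members. RLE factors moved the median of all genes by 0.13 at MEP TAM day 7, 0.14 under ruxolitinib in MEPs, 0.12 between the MEP time points, -0.12 for MEP against LSK and 0.27 for the MEP minus LSK effect of TAM day 7. Irf4 in MEPs and the interferon genes are limited by depth. LSK vehicle C has 2 libraries, and its values rest on both.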
